A study of Mus musculus with 16 samples.

Results

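Distal LSD1 sites lost under the inhibitor were peaks of LSD1 chromatin immunoprecipitation (ChIP-seq) that were called in vehicle-treated (Veh) CD8+ T cells, far from any gene start, and had no counterpart in cells treated with GSK2879552 (GSK). Sites were chosen by their position and by the 2 LSD1 lists: a site was taken when its summit lay more than 2.5 kb from every transcription start site (TSS) of the curated mouse RefSeq transcripts and no GSK LSD1 peak lay within 1 kb of the peak. Of 21252 Veh LSD1 peaks, 11941 were distal by this rule, and 7523 of those were lost and 4418 were kept. Both LSD1 lists entered the rule, so the LSD1 values below describe how the sites were chosen, while the other 10 lists, the nearest genes and the sequence were not used by it. Without the limit on TSS distance, 41.8% of all Veh LSD1 peaks had no GSK LSD1 peak within 1 kb.

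LSD1 (Kdm1a) is a demethylase that takes methyl groups off mono- and dimethylated lysine 4 of histone H3 (H3K4me1 and H3K4me2), and in cells it works mostly within the CoREST corepressor complex with histone deacetylases. It does not recognise DNA by itself and is brought to chromatin by its partners and by transcription factors, among them those with a SNAG domain such as GFI1. H3K4me1 is the broad mark of enhancers, H3K4me2 marks enhancers and promoter flanks, H3K4me3 marks active promoters, and H3K27ac marks promoters and enhancers in use. RNA polymerase II (Pol II) peaks away from genes can mark transcribed enhancers.

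The cells were splenic CD8+ T cells from the OT1 strain, in which a transgene encodes an antigen receptor specific for ovalbumin. They were activated with antibodies to CD3 and CD28 for 48 h and expanded in IL-2 for 3 days, with 0.5 μM GSK2879552 (GSK), an irreversible LSD1 inhibitor, or vehicle present throughout, so both groups shared the activation and differed in the inhibitor. The series holds 16 samples, of which 12 are ChIP libraries with 1 peak list each, for 6 antibodies in both treatments, and the 4 inputs were not analysed here. The series holds 1 library per antibody and treatment, and the comparisons below therefore carry no test and no replicate error. The paper states that its ChIP-seq experiments were repeated, but no repeat library is among these samples. The intervals printed are 95% intervals for shares of sites, cover counting error only, and neighbouring sites are not independent of each other. The lists hold no numbers of reads, and they held 2751 (GSK H3K27ac) to 40272 (GSK H3K4me1) peaks. The labelled cell type was checked at promoters: 7 of 7 CD8 T cell markers (Cd3e, Cd3d, Cd3g, Cd8a, Cd8b1, Cd2 and Lck) had an H3K4me3 peak within 1 kb of a TSS in both treatments. Such a peak was called at 0 of 4 B cell, 0 of 2 NK cell, 1 of 4 myeloid and 1 of 2 CD4 T cell markers in both treatments. H3K27ac was called at 4 of the 7 CD8 T cell markers in Veh and 1 in GSK cells, and Pol II at 3 and 5. Cd8a had neither in either treatment, and the markers of the other cell types had none.

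The summits of 10 sites are shown as sequence because they carry the patterns described below: strong sites with the letters of RUNX, ETS or AP-1 factors, and strong sites with none of them. Each run is the plus strand of the RefSeq GRCm38.p6 assembly (mm10), reaching 100 bases to either side of the Veh LSD1 summit, in lower case with capitals for matches, on either strand, to TGTGGTT (RUNX), CAGGAAG (ETS) or TGANTCA (AP-1). The windows were chr11:77386477-77386677 (Ssh2), chr10:21975471-21975671 (Sgk1), chr5:65653888-65654088 (Pds5a), chr6:48510540-48510740 (Zfp862-ps), chr6:71369528-71369728 (Cd8a), chr17:44654650-44654850 (Runx2), chr2:34977306-34977506 (Traf1), chr16:43655171-43655371 (Tigit), chr4:7755610-7755810 (8430436N08Rik) and chr6:129743683-129743883 (Klri2).
Ssh2: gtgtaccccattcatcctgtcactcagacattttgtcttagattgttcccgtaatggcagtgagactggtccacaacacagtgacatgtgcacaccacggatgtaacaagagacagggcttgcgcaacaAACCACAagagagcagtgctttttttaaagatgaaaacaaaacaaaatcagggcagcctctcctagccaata
Sgk1: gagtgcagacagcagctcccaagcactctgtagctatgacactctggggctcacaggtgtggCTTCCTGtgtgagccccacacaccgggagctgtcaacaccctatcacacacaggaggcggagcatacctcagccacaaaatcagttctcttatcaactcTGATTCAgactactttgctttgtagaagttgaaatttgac
Pds5a: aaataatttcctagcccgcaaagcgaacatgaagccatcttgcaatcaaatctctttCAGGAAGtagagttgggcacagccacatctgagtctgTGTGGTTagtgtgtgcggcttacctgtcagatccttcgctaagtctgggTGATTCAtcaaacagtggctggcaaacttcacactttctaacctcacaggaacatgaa
Zfp862-ps: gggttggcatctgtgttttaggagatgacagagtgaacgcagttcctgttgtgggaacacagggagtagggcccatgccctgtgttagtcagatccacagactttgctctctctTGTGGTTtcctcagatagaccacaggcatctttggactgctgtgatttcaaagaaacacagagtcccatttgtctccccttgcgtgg
Cd8a: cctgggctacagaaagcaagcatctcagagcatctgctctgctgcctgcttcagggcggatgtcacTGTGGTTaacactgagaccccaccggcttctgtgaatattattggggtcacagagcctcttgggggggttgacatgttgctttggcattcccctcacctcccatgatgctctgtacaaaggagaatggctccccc
Runx2: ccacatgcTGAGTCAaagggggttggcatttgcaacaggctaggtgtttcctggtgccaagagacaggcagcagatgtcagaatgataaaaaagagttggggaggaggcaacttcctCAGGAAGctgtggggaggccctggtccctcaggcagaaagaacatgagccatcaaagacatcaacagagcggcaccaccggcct
Traf1: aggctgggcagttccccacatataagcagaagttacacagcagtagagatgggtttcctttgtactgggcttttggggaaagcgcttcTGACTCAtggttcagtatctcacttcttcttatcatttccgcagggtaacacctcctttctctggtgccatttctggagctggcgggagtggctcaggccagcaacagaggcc
Tigit: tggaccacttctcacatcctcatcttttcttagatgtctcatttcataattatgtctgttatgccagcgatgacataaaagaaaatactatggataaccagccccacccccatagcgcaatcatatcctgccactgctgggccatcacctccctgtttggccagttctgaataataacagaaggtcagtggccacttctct
8430436N08Rik: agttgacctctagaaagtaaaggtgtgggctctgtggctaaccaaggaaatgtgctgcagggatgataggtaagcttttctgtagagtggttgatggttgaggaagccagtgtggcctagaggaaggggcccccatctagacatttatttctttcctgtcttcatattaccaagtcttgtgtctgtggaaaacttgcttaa
Klri2: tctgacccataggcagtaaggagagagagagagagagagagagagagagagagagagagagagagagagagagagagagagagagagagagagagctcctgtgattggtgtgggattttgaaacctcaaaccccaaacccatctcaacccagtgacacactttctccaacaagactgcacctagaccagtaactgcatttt
The Pds5a window held all 3 kinds of match, and Sgk1 and Runx2 held an ETS and an AP-1 match. Ssh2, Zfp862-ps and Cd8a each held 1 RUNX match and Traf1 held 1 AP-1 match. Tigit, 8430436N08Rik and Klri2 held none of the 3, and much of the Klri2 window was a run of GA repeats, with 74.1% of its bases repeat-masked.

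Lost sites were weaker LSD1 peaks than kept ones. The strength of a peak was taken as its −log10 p in the Veh list, where p is the value MACS2 gave against local background. The median was 5.11 at lost sites, with the middle 50% from 4.18 to 7.07 and a highest value of 60.7, and 9.28 at kept sites (6.50 to 14.3). The fold enrichment over background had a median of 3.81 at lost and 4.87 at kept sites, and the peak width 361 and 488 bp. A −log10 p under 5 was found at 46.6% of lost sites (45.4 to 47.7), against 10.6% of kept sites. A −log10 p of 10 or more was found at 761 lost sites, or 10.1% (9.45 to 10.8), and at 1989 kept sites, or 45.0%.

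The share of distal sites that were lost fell from bin to bin of strength. It was 92.9% for a −log10 p of 3 to 4 and 85.1% for 4 to 5, 61.9% for 6 to 8, 36.5% for 10 to 15, and 16.6% for 15 or more. Over all distal sites it was 63.0% (62.1 to 63.9), against 14.6% (13.9 to 15.4) of the 9311 peaks within 2.5 kb of a TSS that had no GSK LSD1 peak within 1 kb. With a −log10 p of 10 or more only, 27.7% of distal sites were lost. The GSK LSD1 library had fewer read pairs than the Veh library in the study's sequencing summary, and the part of depth in the loss was not tested. Because lost and kept sites differed in strength, the marks and several motifs below are also given by bins of strength or for strong sites only.

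**Figure D1:**
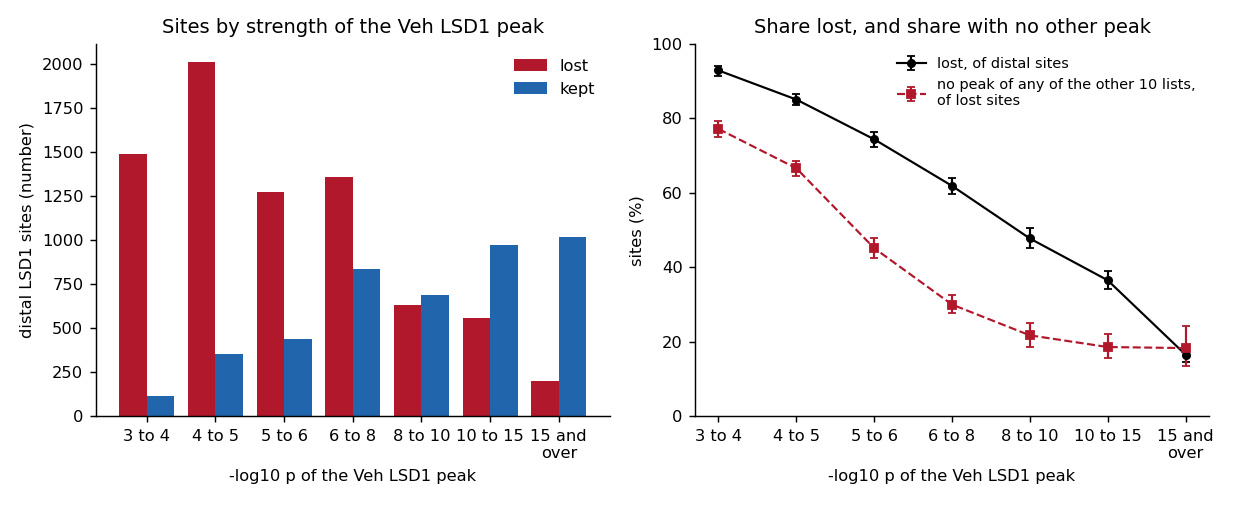
Left, the number of lost (red) and kept (blue) distal LSD1 sites in each bin of the −log10 p of the Veh LSD1 peak. Right, the share of distal sites that were lost (black) and the share of lost sites with no peak in any of the other 10 lists (red), in percent with 95% Wilson intervals; the first falls from 92.9% to 16.6% and the second from 77.2% to 18.3%.

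The sites next to the limits of the rule varied in strength. Just inside the 1 kb limit stood a site nearest to Tmem181b-ps, 1007 bp from a GSK LSD1 peak, with a −log10 p of 3.18, and one in Ifitm10, at 1015 bp and 6.30. Just outside it were kept sites in Susd3, at 996 bp with 10.6, and near Kif2c, at 995 bp with 5.22. Just inside the 2.5 kb limit were sites at 2.501 kb from the TSS of Rnf125 (6.14) and at 2.518 kb from that of Gm6607 (5.72). Just outside it, at 2.497 kb from the TSS of Macf1 (8.11) and at 2.488 kb from that of Arhgef18 (18.4), peaks also without a GSK LSD1 peak were left out as proximal. Most lost sites were far from this border, since the median distance to the nearest GSK LSD1 peak was 27219 bp, and 8.44% had one within 5 kb.

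The lost sites lay deep in introns and between genes. The summit was intergenic at 53.6% of them (52.5 to 54.7), in an intron at 43.6% and in an exon at 2.83%, close to the kept sites with 53.9% intergenic and 40.9% intronic, while exons held 5.27% of kept summits. The median distance to the nearest TSS was 29678 bp at lost and 20993 bp at kept sites. More than 100 kb lay between summit and TSS at 18.7% (17.8 to 19.6) of lost and 8.13% (7.36 to 8.97) of kept sites.

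Most lost sites carried little or no other mark. No peak of any of the other 10 lists overlapped 3751 of the 7523, or 49.9% (48.7 to 51.0), against 506 kept sites, or 11.5% (10.5 to 12.4). In Veh cells, 2071 lost sites, or 27.5%, had H3K4me1 and no other peak, and the next most frequent combination, H3K4me1 with H3K4me2, was found at 298. Peaks of all 5 other antibodies were found at 21 lost sites in Veh cells. H3K4me1 was thus by far the most frequent mark at the sites that had one.

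Beside kept distal sites, lost sites had fewer peaks in each of the 10 lists. H3K4me1 overlapped 37.9% of lost sites in Veh cells (36.8 to 39.0) and 65.0% of kept sites, a difference of −27.1 percentage points (−28.9 to −25.3). For H3K4me2 in Veh cells the shares were 9.44% and 34.2%, for H3K4me3 7.24% and 28.0%, for H3K27ac 6.34% and 22.2%, and for Pol II 4.32% and 15.7%. In GSK cells the shares at lost and kept sites were 40.6% and 67.8% for H3K4me1, 3.93% and 20.6% for H3K4me2, and 9.12% and 34.4% for H3K4me3. They were 1.75% and 8.06% for GSK H3K27ac, and 3.10% and 12.04% for GSK Pol II. The marks were still more frequent at lost sites than in 13378 intervals of the same widths, moved 10 kb to either side. Intervals near TSSs or LSD1 peaks were left out, which by itself lowers their shares. The rest had H3K4me1 at 2.98% in Veh cells and each of the other Veh marks at 0.172% to 0.336%.

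**Figure D2:**
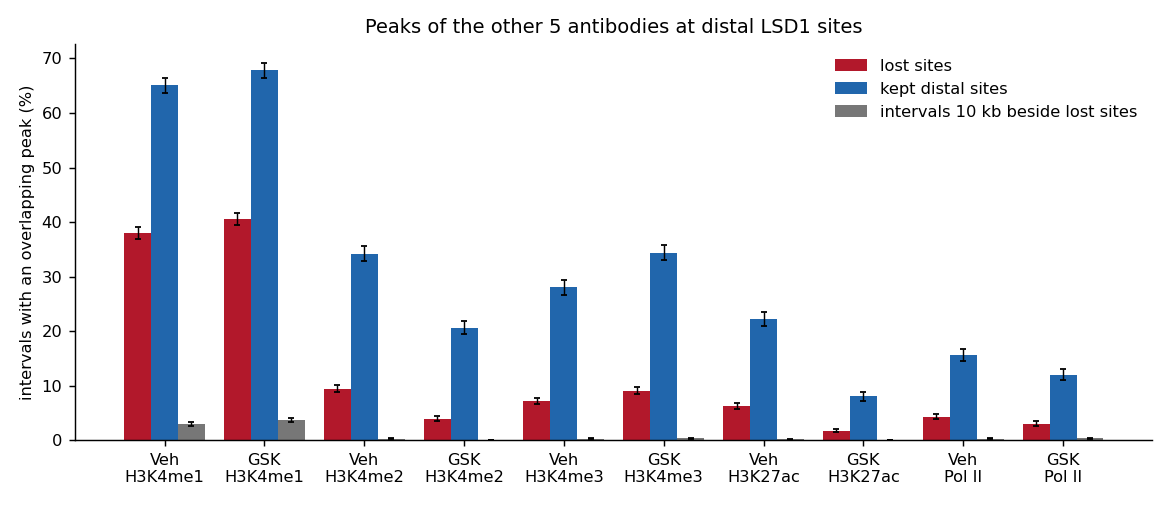
Share of intervals, in percent, that overlapped a peak of each of the 10 lists of the other antibodies, for lost sites (red), kept distal sites (blue) and intervals 10 kb beside lost sites (grey), with 95% Wilson intervals. Lost sites stood between the flanks and the kept sites in each list, with H3K4me1 highest at 37.9% in Veh and 40.6% in GSK cells.

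At matched LSD1 strength the marks parted into those that closed the gap and those that did not. At lost sites the share with Veh H3K4me1 rose from 16.4% at a −log10 p of 3 to 4 to 40.9% at 5 to 6 and 62.4% at 10 to 15, while at kept sites it stayed between 60.5% and 69.4% in every bin. For 10 to 15 the difference between lost and kept sites was −0.70 percentage points (−5.75 to 4.29), an interval that includes 0, and for 15 or more it was −8.96 (−16.4 to −1.85). H3K4me2 kept its gap, with 12.9% of lost and 31.4% of kept sites at a −log10 p of 10 or more. At that strength Veh H3K4me3 was found at 8.80% and 24.3%, H3K27ac at 11.7% and 24.3%, and Pol II at 6.57% and 15.2%. At that strength Veh H3K4me1 was at 61.9% and 66.3%, a difference of −4.42 (−8.48 to −0.437), so H3K4me1 came closest to the kept sites and the marks of active promoters and enhancers stayed well below them.

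**Figure D3:**
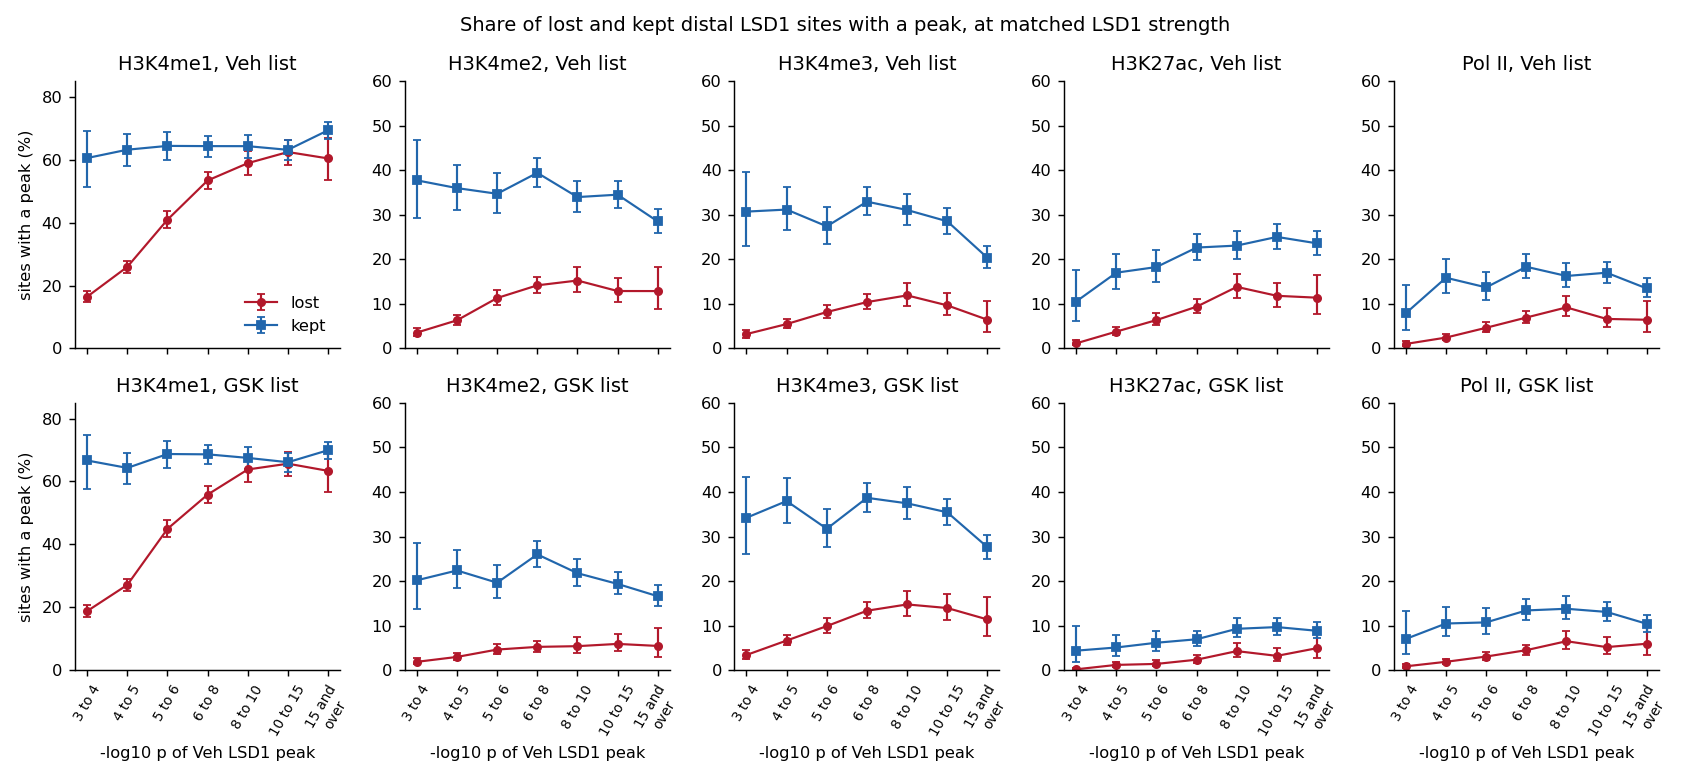
Share of lost (red) and kept (blue) distal LSD1 sites, in percent, with a peak of each mark in the Veh (top) and GSK (bottom) lists, by bins of the −log10 p of the Veh LSD1 peak, with 95% Wilson intervals. The H3K4me1 curve of the lost sites rises from 16.4% and meets that of the kept sites at 10 to 15, while the curves of the other marks stay apart in the Veh lists.

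Since H3K4me1 and H3K4me2 are the substrates of LSD1, their presence was compared between treatments at the sites that lost LSD1. H3K4me1 was shared by both treatments at 2566 lost sites, appeared under GSK alone at 486 and under Veh alone at 288. GSK-only H3K4me1 thus stood at 6.46% of lost sites, against 7.55% of all Veh LSD1 peaks, and Veh-only H3K4me1 at 3.83%, against 4.26%. The net change, GSK-only minus Veh-only, was 2.63 percentage points (1.92 to 3.32) at lost and 2.78 (1.71 to 3.82) at kept sites. The GSK H3K4me1 list was the longer of the pair, and with both lists shortened to their 34387 peaks of highest −log10 p the net change at lost sites was 0.239 percentage points (−0.485 to 0.961). Of the lost sites with Veh H3K4me1, 89.9% (88.7 to 91.0) still had it in GSK cells, against 91.8% (90.8 to 92.8) of such kept sites.

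The other histone marks moved with the length of their lists as well. For each histone mark the longer list came from the library with more read pairs in the study's sequencing summary, and the part of depth in these values was not tested. H3K4me2 was shared at 213 lost sites, present under Veh alone at 497 and under GSK alone at 83, which gave a net of −5.50 percentage points (−5.91 to −5.03). The Veh-only share of 6.61% stood beside 13.5% over all Veh LSD1 peaks, and the GSK-only share of 1.10% beside 2.64%. With both lists at 9437 peaks the net change was −0.452 (−0.913 to 0.0199). H3K27ac was shared at 123, under Veh alone at 354 (4.71%, beside 13.4%) and under GSK alone at 9 (0.120%, beside 0.485%). Its net change of −4.59 became −0.306 (−0.584 to −0.00983) with both lists at 2751 peaks. H3K4me3 was shared at 498, under Veh alone at 47 (0.625%, beside 0.635%) and under GSK alone at 188 (2.499%, beside 3.53%), and its net change of 1.87 became 0.452 (0.0837 to 0.803). Pol II, whose lists were of near equal length, was shared at 130, under Veh alone at 195 (2.59%, beside 7.45%) and under GSK alone at 103 (1.37%, beside 3.3%), a net change of −1.22 (−1.63 to −0.782) that was −1.21 with equal lists.

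**Figure D4:**
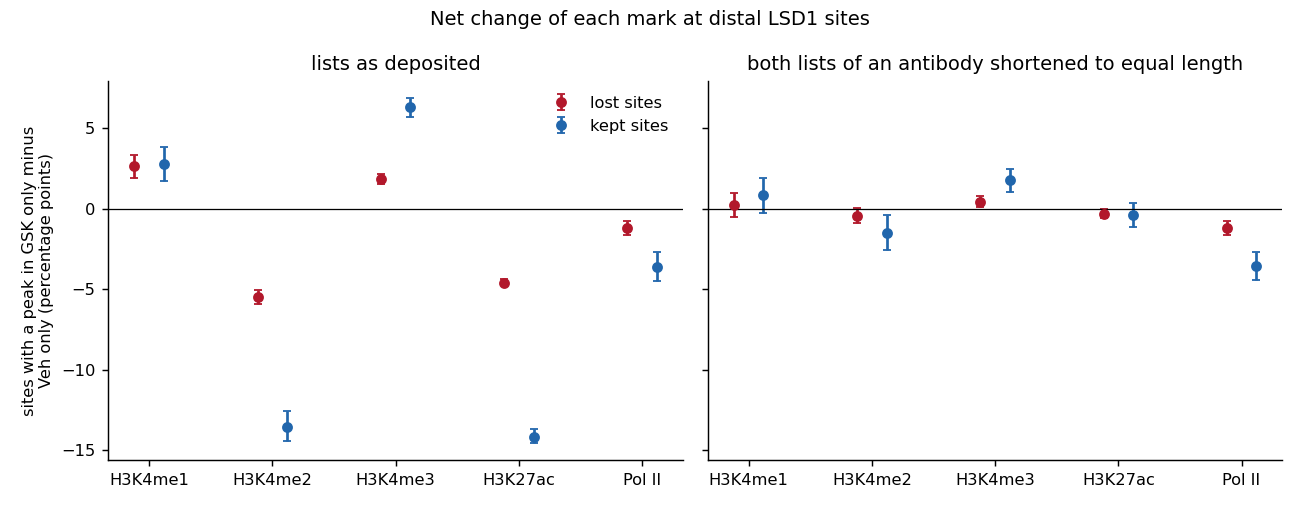
Net change of each mark, the share of sites with a peak in GSK cells only minus that in Veh cells only, in percentage points, at lost (red) and kept (blue) distal LSD1 sites, with 95% intervals. Left, the lists as deposited; right, both lists of an antibody shortened to the same number of peaks, where H3K4me1 at lost sites is 0.239 and H3K4me2 is −0.452.

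The 8 strongest lost sites had a −log10 p of 40.3 to 60.7, and their values varied widely over the other lists. The strongest was in intron 2 of Ssh2, a phosphatase that acts on cofilin, 38.3 kb from its TSS, with a fold of 13.6; the nearest GSK LSD1 peak lay 37.9 kb away. There, H3K4me1 had a fold of 2.97 in Veh cells and no peak in GSK cells, and the other 8 lists had none. The site in Sgk1, a kinase of the PI3K pathway, had no H3K4me1 in either treatment, H3K4me2 in Veh cells (3.69), and H3K27ac (4.52) and Pol II (3.85) in GSK cells only. In Pds5a, a cohesin regulator, H3K4me1 was called in both treatments, with folds of 4.93 and 4.50, and nothing else was. The sites near 8430436N08Rik (chr4:7755469-7755989, −log10 p 49.0) and Klri2 (chr6:129743551-129743922, 45.1), the latter upstream of a gene of the NK cell lectin-like receptors, had no peak in any of the other 10 lists. Near Gm7607 (chr9:14641686-14642171, 45.6) H3K4me1 had folds of 4.22 and 3.28 in Veh and GSK cells, with H3K4me2 in GSK cells only (4.84). In intron 2 of Zfp862-ps (chr6:48510473-48510907, 41.4) H3K4me1 was called in GSK cells only (4.29), and near She (chr3:89864166-89864616, 40.3), in Veh cells only (2.498).

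Strong sites with H3K4me1 in GSK cells only also included one in intron 1 of Itgae (chr11:73101350-73101751), which encodes the integrin CD103 of tissue-resident T cells. Its LSD1 fold was 10.2 with a −log10 p of 33.0, and GSK H3K4me1 had a fold of 2.14. The others with this pattern were upstream of Sbf2 (fold of GSK H3K4me1 2.73) and in intron 2 of Epn2 (2.92). Veh-only H3K4me1 was found beside Ssh2 and She at a site in intron 2 of Fyn (2.58), the gene of a Src family kinase of the T cell receptor pathway, whose nearest TSS was that of Gm40627 at 104 kb. A site in intron 2 of Pdlim5 (3.28) was the other.

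H3K27ac was called in Veh cells only at a site 10.1 kb upstream of Xcr1, the receptor of the chemokine XCL1 (chr9:123871962-123872535, LSD1 fold 12.47, −log10 p 35.1). It also had H3K4me1 in both treatments (3.55 and 3.64), and under Veh alone H3K4me2 (4.74) beside H3K27ac (4.55). Sites in intron 1 of Arhgap25 (H3K27ac fold 3.95) and intron 6 of Sfi1 (2.12), and one near Pabpc2 (3.48), had the same Veh-only H3K27ac. H3K27ac or Pol II was called in GSK cells only at Sgk1, downstream of Lrrc32 (Pol II 2.95), near 1110002J07Rik (3.31) and upstream of Olfr524 (2.67). Lrrc32 encodes GARP, the receptor of latent TGFβ, and its site had H3K4me2, H3K4me3 and H3K27ac in both treatments. Without any other mark were, besides 8430436N08Rik and Klri2, sites upstream of Shfl (31.7) and Sec24b (30.6), given by their LSD1 −log10 p. The strongest of the 21 sites with all 5 other antibodies in Veh cells were near Rem2 (11.7), Map3k7 (11.7) and P2ry13 (8.73) and in Cdkl3 (8.71). All 4 were far weaker LSD1 peaks than the sites above.

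The nearest gene was taken for each site, with no claim that the gene is its target. The 7523 sites fell to 5321 genes, of which 3884 had 1 lost site and 4 had 10. These were Foxp1, a transcription factor that holds T cells in quiescence, Tab2, an adaptor of the TAK1 kinase, and the transcripts 7530428D23Rik and Gm30948; Macroh2a3 had 9. At Foxp1, 8 of the 10 had Veh H3K4me1 and 4 further distal sites were kept. At Gm30948, 9 of the 10 had it in Veh and 9 in GSK cells, while at 7530428D23Rik 2 had it in Veh and 4 in GSK cells.

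Of 213 genes on 12 lists of T cell and LSD1 biology, 105 had at least 1 lost site, beside 20.3% of all 26180 genes. Their 457 distal sites included 219 lost ones, or 47.9% (43.4 to 52.5), against 63.0% over all genes. With a −log10 p of 10 or more, 43 of 183 were lost, or 23.5% (17.9 to 30.1), against 27.7% (26.0 to 29.4). By list, the lost sites were 11 of 18 distal ones for inhibitory receptors, 13 of 31 for effector and cytotoxic genes, 15 of 37 for chemokines and their receptors, and 26 of 58 for memory and progenitor genes. They were 40 of 84 for effector and exhaustion transcription factors, 28 of 59 for T cell lineage transcription factors, 24 of 45 for TCR and costimulation genes and 26 of 57 for cytokine receptors and signalling. They were 9 of 16 for the TNF receptor family, 13 of 26 for survival and apoptosis, 11 of 18 for the LSD1 complex and its partners, and 3 of 8 for markers of B, myeloid and NK cells. These shares ran from 37.5% to 61.1%, each with a wide interval (38.6 to 79.7 for the inhibitory receptors).

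Among inhibitory receptors, which restrain activated T cells, lost sites were found at 5 of 12 genes, beside the same 20.3%. In intron 3 of Tigit (chr16:43655138-43655466) the LSD1 fold was 7.03 with a −log10 p of 16.1, and H3K4me1 was called in GSK cells only (2.46). In Havcr2, the gene of TIM-3, a site in intron 5 (chr11:46474293-46474589, −log10 p 11.9) had H3K4me1 in both treatments (3.23 and 2.84), and one in intron 3 (9.20) had H3K4me1 and H3K4me3 in both. Downstream of Ctla4, 32.1 kb from its TSS, a weaker site (7.34) had H3K4me1 and H3K27ac in both and H3K4me2 in Veh cells only. All 3 distal sites of Ctla4 were lost, while Havcr2 and Tigit each had 1 kept site. The Ctla4 sites had a median −log10 p of 6.43, and over all distal sites at 6 to 8, 61.9% were lost.

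Among effector and cytotoxic genes, the strongest lost site was in intron 2 of Prf1, the gene of perforin (13.5), and had no other mark. Il10 had one in intron 4 (12.51), also without other marks. Downstream of Ifng, the gene of interferon gamma, a site at 45.9 kb (11.4) had H3K4me1 in both treatments (3.07 and 3.26) and one at 39.9 kb (11.2) had none. For chemokines and their receptors, a site 30.7 kb upstream of Ccr4, in intron 1 of Trim71, reached 12.3 with H3K4me1 in both treatments (5.22 and 5.08) and H3K4me3 in Veh cells only (3.87), and a further one at 11.04 kb reached 8.45. Cxcr4 had one 199 kb upstream (10.6) with H3K4me1 in both.

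Among memory and progenitor genes, Foxp1 held sites in intron 3 (13.5, no other mark) and intron 2 (10.7, H3K4me1 in both). Lef1, a partner of beta-catenin, had one 95.7 kb upstream (12.98) with H3K4me1 in both, and Cd27, a costimulatory receptor, one 4.77 kb upstream (12.8) with H3K4me1 in GSK cells only (1.87). The transcription factors of effector and exhausted cells held the strongest site of any list. A site 12.1 kb upstream of Irf8 reached 19.5, with no other mark and a GSK LSD1 peak 1.44 kb away. A site in the last intron of Wwox, 478 kb from its nearest TSS, that of Maf, reached 19.4 with H3K4me3 in both treatments (4.88 and 6.16). Tox, which drives the exhaustion programme, had sites 94.8 kb (17.0, no mark) and 208 kb (13.4, Veh-only H3K4me1, 4.26) upstream. Their summit windows were repeat-masked at 97.5% and 42.8% of bases. All 5 distal sites of Irf4, all 5 of Nfil3 and both of Nr4a3 and of Zeb2 were lost. Their median −log10 p was 5.29, 5.49, 7.60 and 6.18, and over all distal sites 74.4% were lost at 5 to 6 and 61.9% at 6 to 8. None of the 3 of Nr4a1, the 2 of Eomes, the 2 of Nfatc1 and the 1 each of Tbx21, Id2 and Zeb1 was lost. The highest −log10 p of these kept sites was 24.9, 6.15, 10.5, 45.2, 8.39 and 7.92, in the same order.

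Among lineage factors, intron 3 of Runx2 held a site (14.5) with H3K4me1 in both treatments (3.27 and 3.03) and with H3K4me2 (4.003) and Pol II (3.86) in Veh cells only. Ikzf1 (10.9) and Tcf12 (9.38) had intronic sites without other marks, and the site nearest to Elf1, in intron 7 of Wbp4 (10.5), had H3K4me1 in both. For TCR and costimulation genes, a site 3.80 kb upstream of Cd8a, the CD8 alpha chain, reached 14.3 with no other mark. Cd8b1 had one in intron 1 (11.6, no mark) and one 14.4 kb upstream (10.8, H3K4me1 in both), and Cd5 one in intron 8 (12.9, H3K4me1 in both). The kept sites nearest to Cd8b1 reached 8.96, so there the stronger distal sites were the lost ones.

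Among cytokine receptors, Il6st, the gene of gp130, had a site 23.9 kb upstream (18.04) with H3K4me1 in Veh cells only (2.99). A site in intron 7 of Il12rb2, a chain of the IL-12 receptor, reached 16.9 with H3K27ac in both treatments (3.67 and 4.54) and with H3K4me1 (2.93) and Pol II (5.53) in Veh cells only. All 4 distal sites of this gene were lost, with a median −log10 p of 6.56, beside 61.9% of all distal sites at 6 to 8. Stat4 had one in intron 4 (14.4, no mark) and Il2ra, the alpha chain of the IL-2 receptor, one in intron 1 (11.1) with H3K4me3 in both, H3K27ac in Veh cells only (3.19) and Pol II in GSK cells only (3.27). In the TNF receptor family, Tnfrsf9, the costimulatory receptor 4-1BB, had both its distal sites lost (14.9 and 11.8), the first with H3K27ac in both treatments and H3K4me3 in GSK cells only. Over all distal sites at 10 to 15, 36.5% were lost. Tnfrsf1b (13.7) and Tnfsf8 (12.4) had intronic sites, with H3K4me1 in both treatments and in Veh cells only, respectively. Upstream of Traf1, an adaptor of these receptors, sites at 15.6 kb (17.5) and 20.6 kb (8.86) were lost, the first with H3K27ac in Veh cells only (3.13) and H3K4me3 in GSK cells only (3.93). The pro-apoptotic genes Pmaip1 (11.5) and Bcl2l11 (7.34) had sites with H3K4me1 in both.

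Of the partners of LSD1, Gse1 (10.4) had a lost site without other marks, 104 kb from its TSS. Insm1 (7.38), a SNAG domain factor, had one at 106 kb with H3K4me1 in both treatments, and Rcor2 (6.86), a CoREST paralogue, had one at 4.76 kb without marks. Genes of other cell types gave Mpo (7.71), in an intron of Lpo, and 2 sites of Ebf1 (5.43 and 4.12). None of these 3 reached a −log10 p of 10.

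Promoters of genes nearest to lost sites only had H3K4me3 and LSD1 more often than those of genes nearest to no distal LSD1 site, and less often than those of genes nearest to kept sites. Of 3953 genes nearest to lost sites only, 51.8% (50.3 to 53.4) had an H3K4me3 peak within 1 kb of a TSS in Veh cells and 29.2% (27.8 to 30.6) a Pol II peak. Of the 19058 genes nearest to no distal LSD1 site, the shares were 47.3% (46.6 to 48.0) and 28.3% (27.7 to 29.0). A Veh LSD1 peak was within 1 kb at 37.3% (35.8 to 38.8) and 34.2% (33.6 to 34.9), and at 44.1% (41.9 to 46.4) of the genes nearest to kept sites only. Of 1801 genes nearest to kept sites only, the H3K4me3 and Pol II shares were 60.4% (58.1 to 62.6) and 33.8% (31.6 to 36.0), and of the 1368 nearest to both kinds, 67.8% and 37.9%.

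In sequence, the lost summits held fewer RUNX, ETS and AP-1 matches than kept ones when all were taken. In every strength bin from a −log10 p of 6 upward the sign of these differences turned. The windows reached 100 bases to either side of the summit and both strands were read. The RUNX letters TGTGGTT were found in 13.6% (12.8 to 14.4) of lost windows and 17.97% of kept ones, the ETS letters CAGGAAG in 16.3% and 20.1%, and the AP-1 letters TGANTCA in 11.9% and 15.3%. Windows 1 kb to either side of the lost summits gave 5.16%, 6.97% and 6.12%, and all 21252 Veh LSD1 summits gave 10.3%, 13.99% and 9.11%. RUNX and ETS factors are central to CD8 T cell identity, and AP-1 is induced by T cell receptor signals.

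With a −log10 p of 10 or more, RUNX letters were found in 27.5% (24.4 to 30.7) of lost and 22.3% of kept windows, a difference of 5.19 percentage points (1.61 to 8.92) with the opposite sign. For ETS the difference was 3.16 (−0.342 to 6.82) and for AP-1 2.05 (−1.12 to 5.42), both with intervals that include 0. At 15 or more, 36.1% (29.8 to 43.0) of 202 lost and 24.7% (22.1 to 27.4) of 1018 kept windows had the RUNX letters. At 3 to 4, they were in 6.58% (5.43 to 7.95) of lost windows, near the 5.16% beside the sites. At least 1 of the 3 motifs was in 57.7% (54.1 to 61.2) of strong lost and 49.9% (47.7 to 52.1) of strong kept windows.

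The RUNX matches gathered at the summit in strong lost sites and hardly in weak ones. In lost sites with a −log10 p of 10 or more, RUNX matches stood at 2.16 per kb of sequence at the summit. They reached 2.47 at 25 bp from it and were at 0.420 and 0.683 per kb at 500 bp to either side. In lost sites with a −log10 p under 5 they stood at 0.400 per kb at the summit, and kept sites of all strengths had 1.27 there. Strong lost and kept sites are thus not at matched strength in these profiles. ETS matches at the summit stood at 1.63, 0.788 and 1.39 per kb and AP-1 matches at 1.63, 0.480 and 0.996 in the same order.

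**Figure D5:**
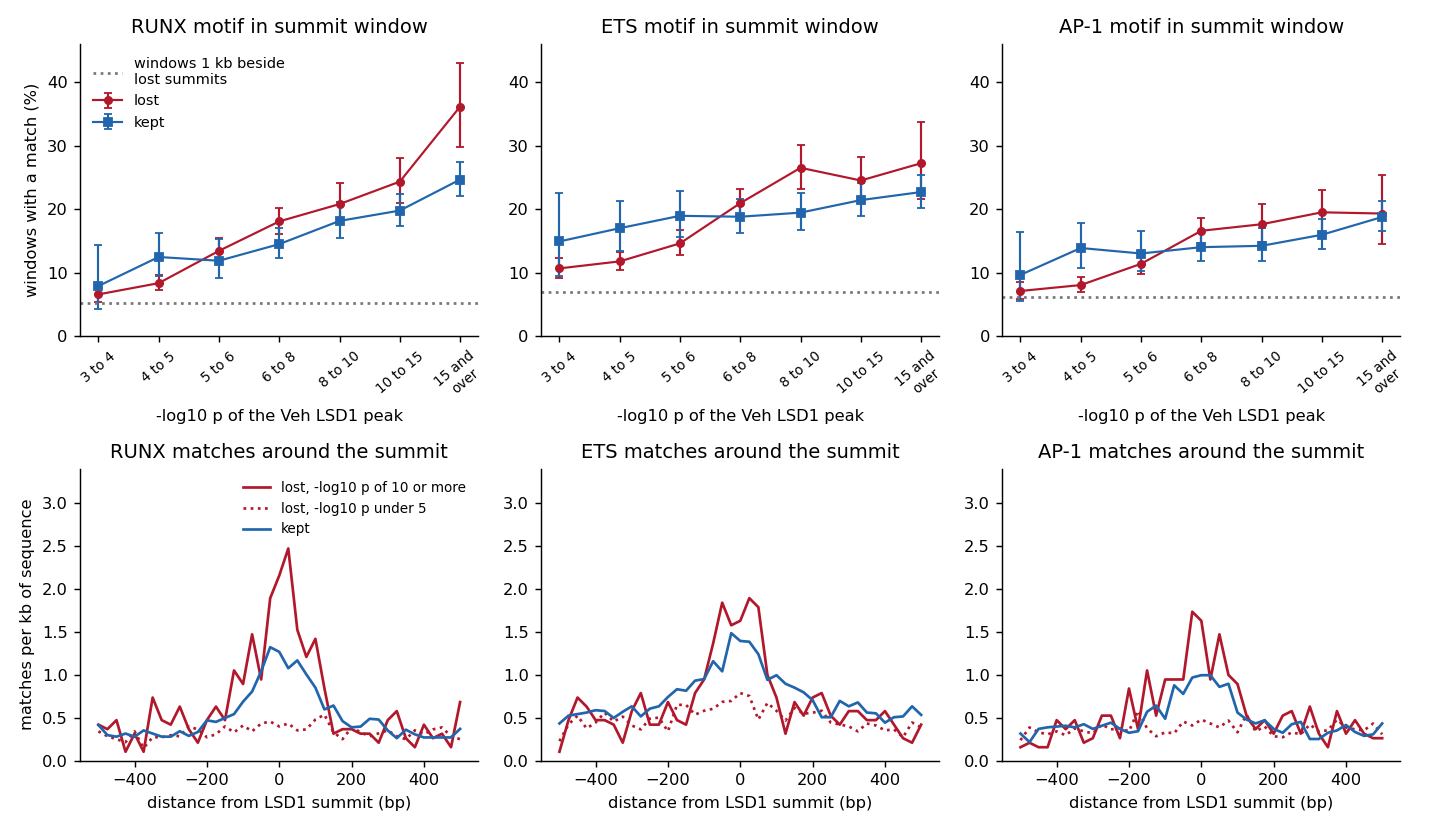
Top, share of summit windows with a RUNX, ETS or AP-1 match, in percent with 95% Wilson intervals, for lost (red) and kept (blue) sites by −log10 p of the Veh LSD1 peak; the dotted line is the share 1 kb beside lost summits. Bottom, matches per kb of sequence by distance from the summit in bp, for strong lost (red), weak lost (red, dotted) and all kept (blue) sites. The RUNX curve of strong lost sites peaks at 2.47, that of weak lost sites stays near 0.400.

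Of the other motifs, SP and KLF letters had the largest differences. SP letters (GGGCGG), which are common in CpG-rich promoters, were found in 5.80% (5.29 to 6.35) of lost, 13.1% of kept and 43.9% of proximal windows. KLF letters (GGGNGTG) were found in 17.1% and 22.0% of lost and kept windows, and the E-box forms CACCTG and CAGCTG in 15.7% and 18.4% and in 10.8% and 13.2%. GATA letters (AGATAA) were in 9.29% (8.66 to 9.97) of lost and 6.79% of kept windows, fewer than the 11.9% beside the lost sites. At a −log10 p of 10 or more the GATA difference was 0.223 percentage points (−1.91 to 2.63). GFI1 letters (AATCACNGC), of a SNAG factor that binds LSD1, were in 0.758% (0.585 to 0.980) of lost windows, 0.928% of kept ones and 0.445% beside the sites, and at a −log10 p of 10 or more in 2.10% (1.30 to 3.39) and 1.41%. Lost shares were 8.15% for STAT (TTCNNNGAA), 6.23% for IRF (GAAANNGAA), 4.001% for NFAT (TGGAAAA) and 3.80% for CTCF (CCANNAGGG). They were 3.26% for TCF/LEF (ATCAAAG) and 1.44% for T-box (AGGTGTGA). Each of these was within 1 percentage point of the kept share. For the rare T-box letters, with 2.33% in kept windows, the difference was −0.896 (−1.44 to −0.395), an interval without 0. Lost shares were 1.79% for MARE (GCTGANTCA, which holds the AP-1 letters) and 1.46% for the BATF-IRF composite (AAATGANTC, which overlaps them). They were 0.944% for NR4A (AAAGGTCA), 0.824% for NF-kB (GGGANTTTC) and 0.346% for CRE (TGACGTCA). At a −log10 p of 10 or more, NFAT letters were in 1.84% (1.10 to 3.06) of lost and 4.07% of kept windows. IRF letters were there in 4.47% (3.21 to 6.18) of lost and 7.34% of kept windows.

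The lost windows were also poorer in GC and, with all strengths pooled, richer in repeats. Their median GC content was 48.3% (middle 50% from 44.3 to 52.2), against 52.2% at kept sites, and a difference of this direction was present in every strength bin. The summit base was repeat-masked in 31.5% (30.5 to 32.6) of lost and 23.6% (22.3 to 24.8) of kept sites, falling in lost sites from 35.1% at a −log10 p of 3 to 4 to 24.3% at 15 or more. At matched strength this difference did not hold in every bin, with 25.2% of lost and 25.98% of kept sites at 8 to 10, and 22.5% and 24.1% at 10 to 15. Of 1535 hexamers found in at least 5% of lost or kept windows, those with the highest ratio of lost to kept were rich in A and T: ATATTA was in 5.20% of lost and 1.83% of kept windows, yet in 11.5% beside the lost sites, and AATAAT in 7.75%, 2.99% and 14.7%. The 6 with the lowest ratio had 6 G or C bases each, and CGCGGC, at the bottom, was in 0.984% of lost and 6.50% of kept windows.

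Among lost sites, the motifs also followed the marks. Among lost sites with Veh H3K4me1, ETS letters were in 25.5% (24.0 to 27.2), RUNX letters in 18.7% and AP-1 letters in 16.6%, against 23.0%, 20.3% and 16.5% at kept sites with H3K4me1. Among lost sites with no peak of any other list the shares were 8.48% (7.63 to 9.41), 8.61% and 7.76%. Kept sites with no peak of any other list, whose median −log10 p was 9.23, had ETS letters in 8.89%, RUNX letters in 15.6% and AP-1 letters in 12.3%. The unmarked lost sites were also the weaker lost sites, with a median −log10 p of 4.18 beside 6.29 with Veh H3K4me1. The part of strength in these differences was not tested. RUNX letters were in 19.8% (16.5 to 23.5) of the 486 sites with H3K4me1 under GSK alone and 19.4% (15.3 to 24.4) of the 288 with it under Veh alone. The E-box letters CAGCTG were in 10.1% (7.71 to 13.1) and 18.1% (14.04 to 22.9) of the same lost sites. This contrast was not particular to lost sites. Kept sites with H3K4me1 under GSK alone and under Veh alone had these letters in 10.1% (7.35 to 13.6) and 17.0% (12.8 to 22.3).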

How the data were processed

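ChIP-seq libraries of LSD1, H3K4me1, H3K4me2, H3K4me3, H3K27ac and Pol II from Veh- and GSK-treated CD8+ T cells were compared through their peak lists. Per the study's methods, Bowtie2 placed reads at unique positions of mm10, PCR duplicates were discarded (Samtools), and the authors ran MACS2 with a p cutoff of 0.001. Peaks were called per library, and which input served as control is not given in the sources used here. For each peak the authors deposited a score, a fold enrichment (ratio over local background), a −log10 p and a −log10 q. In the deposited files the score is 10 times −log10 p (LSD1, Pol II) or −log10 q (histone marks), and it was not used. The authors deposited no counts. The study's sequencing summary lists read pairs per library, which differed most between treatments for H3K27ac (fewer under GSK), and no interval covers this. Summits are given for LSD1 and Pol II (narrow peaks), and the histone lists hold broad regions.

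Summits were compared with 31601 curated RefSeq TSSs of 26180 genes (GRCm38.p6, the assembly of mm10). All peaks ended within its chromosomes. A mark counted at 1 bp of overlap. Intervals are Wilson (shares), Newcombe (differences) or, for net changes, scaled from a Wilson interval on the proportion gained among sites that changed. Each library is 1 sample, so no test was run. Scripts used Python 3.11.15, pandas 2.3.3, pysam 0.24.0 and samtools 1.23.1 and were tested on simulated data. The members, the 12 gene lists, the 21 motifs and the rule for named sites were chosen with earlier results of these data known. Named were the 8 strongest lost sites, up to 4 per gene list and per class of marks, the 5 genes with most lost sites, the sites next to each limit, and 6 hexamers at either end. Some sites under this rule are not reported here. The transcription factors with all or no sites lost, and the counts per gene given for list genes, were chosen after their values were seen. Alternatives changed the distance limits, the strength of the sites, the TSS set, the overlap rule, the list lengths and the window size.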

Additional observations from a re-analysis of the deposited data

How the results depend on the processing

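No paired analysis was possible because each antibody and treatment had 1 library in the series, and none could be left out. The cause of the shifts below was not tested. Differences are lost minus kept and net changes GSK-only minus Veh-only, in percentage points, over Veh lists in the order H3K4me1, H3K4me2, H3K4me3, H3K27ac, Pol II. Direction held in all alternatives run for the number and share lost, these differences, the net changes and GC. For net changes this means the sign only, since with equal lists the intervals of H3K4me1 and H3K4me2 included 0. For repeats it held in the 1 alternative run, and turned in the bins of 8 to 10 and 10 to 15. At least 1 alternative turned the sign for 12 of 21 motifs: RUNX, ETS, AP-1 and the E-box CAGCTG, and GFI1, NF-kB, NFAT, IRF, STAT, CRE, BATF-IRF and TCF/LEF, whose differences over all sites had intervals that include 0. With a −log10 p of 10 or more, 761 sites or 27.7% were lost (23.5% for the gene lists), and the differences were −4.42, −18.5, −15.5, −12.6 and −8.61. There, net changes were −7.10 (H3K4me2), 4.47 (H3K4me3) and −8.02 (H3K27ac), GC differed by −2.99 and masked summits by 0.774, and motif differences were 5.19 (RUNX), 3.16 (ETS), 2.05 (AP-1) and 1.09 (E-box). With a −log10 q of 2 or more, 4459 sites or 52.4% were lost, differences were −15.0, −21.2, −18.3, −14.0 and −9.81, and net changes 3.34, −7.76, 2.58, −6.53 and −1.84. The share lost was 61.2% with a TSS limit of 1 kb, 65.6% with no overlap only, 57.7% with 5 kb to a GSK peak and 64.8% with all RefSeq TSSs. H3K27ac net changes were −4.87, −5.00 and −4.02 in the first 3 of these. With the 1 kb TSS limit differences were −25.0 (H3K4me1) and −23.4 (H3K4me3), with 5 kb to a GSK peak −25.3, −22.3 and −18.8 for the first 3 lists, and with all TSSs −29.2 (H3K4me1) and −17.9 (H3K4me3). Where a peak had to cover the summit, differences were −23.9, −17.6, −15.4, −10.6 and −6.83 and net changes of the last 4 marks −4.20, 1.12, −3.34 and −0.518. Within 1 kb they were −35.1, −29.1, −22.8, −19.1 and −13.5, with net changes of 3.42 (H3K4me1), −7.91 (H3K4me2) and −5.81 (H3K27ac). Without sites that had H3K4me3, differences were −32.6, −12.8, −9.54 (H3K27ac) and −3.84 (Pol II), and net changes −3.43, −2.67 and −0.221 (H3K4me2, H3K27ac, Pol II). With lists of equal length, net changes were 0.239, −0.452, 0.452 and −0.306. The shorter windows gave −2.38 (RUNX), −2.33 (ETS) and −1.82 (AP-1), and the longer ones −6.08 (ETS).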

Other observations

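The X chromosome held few distal LSD1 sites and most of them were lost. Of 251 distal sites on it, 215 were lost, or 85.7% (80.8 to 89.5), while the 19 autosomes ranged from 56.0% to 68.6%. Lost sites stood at 1.26 per Mb on the X chromosome and at 2.48 to 3.75 per Mb on the autosomes. The sites on X were weak, with a median −log10 p of 4.18 over its distal sites beside 6.23 on autosomes. At a −log10 p of 5 to 10, 73.6% (63.4 to 81.7) of 87 X sites and 62.2% (60.9 to 63.5) of 5134 autosomal sites were lost. Of the lost sites on X, 84.2% had no peak of any other list, against 48.9% on autosomes, and 6.05% had Veh H3K4me1, against 38.9%. This held within strength, since at 5 to 10 the H3K4me1 shares of lost sites were 14.1% and 50.3%.

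The YY1 letters AAGATGGC were found in 178 lost windows, or 2.37% (2.05 to 2.73), beside 1.06% of kept windows and 1.69% of windows 1 kb beside the lost summits. They lay mostly in repeats: 119 of these windows had a repeat-masked summit, 5.02% (4.21 to 5.97) of the 2371 such lost sites, against 1.15% (0.889 to 1.47) of the 5152 others. Kept sites with a repeat-masked summit had them in 1.54% (0.948 to 2.48). Which repeat families these are was not analysed here. The excess of YY1 letters over kept sites was not present at every strength. At a −log10 p of 4 to 5 they were in 3.33% of lost and 1.13% of kept windows, and at 8 to 10 in 1.27% and 1.45%. At 10 or more the shares were 1.18% and 1.01%, a difference of 0.177 percentage points (−0.602 to 1.28).

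In the opposite direction, 5039 distal GSK LSD1 peaks had no Veh LSD1 peak within 1 kb, beside the 7523 sites lost.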
